A study of Mus musculus with 2 samples.

Results

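The clustered protocadherins are cadherin-type adhesion proteins of the cell surface whose genes lie in 3 tandem clusters, Pcdha (alpha), Pcdhb (beta) and Pcdhg (gamma). Each large variable exon has a promoter of its own. In the alpha and gamma clusters the transcript from a chosen variable exon is spliced to constant exons shared by the whole cluster, whereas beta genes lack constant exons. In neurons, where the family is best known, single cells use few of the alternate promoters, and the resulting combination of isoforms gives the cell a surface identity used in self-avoidance of its branches. Choice involves DNA methylation and looping by CTCF and cohesin between promoters and distant enhancers, and the C-type genes at the end of the alpha and gamma clusters are used in a more constitutive way. Spleen is a lymphoid and blood-forming organ, so the clusters were examined here outside the tissue in which they are usually studied.

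Open chromatin had been mapped by DNase-seq, which finds accessible DNA by sequencing where the enzyme DNase I has cut in isolated nuclei. The 2 libraries came from spleen of 36-day-old female B6CASTF1/J mice, an F1 cross between the strains C57BL/6 and CAST, and the labels name no treatment. They are called biological replicates 1 and 2 and form 1 group, so no groups were compared. The descriptions number 2 females but both libraries carry the same donor entry, and the spread between them may therefore be partly technical.

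The genes were all protein-coding genes of GENCODE release M21 on mm10 whose symbol begins with Pcdha, Pcdhb or Pcdhg. This gave 57 of 21938 protein-coding genes, all on the plus strand of chromosome 18. The alpha cluster held 14 genes, the beta cluster 22 and the gamma cluster 21. Of these genes 5 were C-type, namely Pcdhac1, Pcdhac2, Pcdhgc3, Pcdhgc4 and Pcdhgc5, and the other gamma genes were 12 of the A subfamily and 6 of the B subfamily. The annotation gives the symbol Pcdha11 to 2 genes, and the one starting at 37005203 is named Pcdha10 here, as in RefSeq (GRCm38.p6) at that position. Pcdhgb8 is annotated as a polymorphic pseudogene, is thus not among the 57, and is described apart. The region examined ran from 100 kb before the first gene to 100 kb after the last, chr18:36830184-37941873, or 1112 kb.

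The deposited files gave 4 readouts per library. The shorter of 2 peak lists held 42454 peaks in replicate 1 and 60683 in replicate 2, and the longer held 61285 and 89476. Every peak of the shorter list held a stretch of bases with a false discovery rate (FDR) of at most 0.001 for an excess of cuts. The third readout was this FDR along the genome, listed only where it was under 0.05, over 20.3 and 27.9 Mb. The fourth was footprints, short stretches protected from cutting within open chromatin, of which there were 133725 and 246700. The signal of each peak is the authors' value and was used only within a library. It rose in whole multiples of a step, and the step of replicate 1 (0.0106) was 2.06 times that of replicate 2 (0.00513). How many reads each library had is not given in the sources used here. Of 8 B cell genes all 8 had a promoter peak of the shorter list in each library, beside 53.4% of all protein-coding genes in replicate 1 and 56.9% in replicate 2.

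A few gamma promoters were open in spleen, and those of the alpha and beta clusters were closed. A promoter was taken as the 1 kb on each side of any annotated start of the gene. In the shorter lists such peaks were found at 5 of the 57 promoters for replicate 1 and at 3 for replicate 2, a mean of 4.0 ± 1.41 (SD, n = 2). Over all protein-coding genes the share with such a peak was 53.4% in replicate 1 and 56.9% in replicate 2, against 8.77% and 5.26% of the clustered genes. The longer lists gave the same 7 genes in both libraries, beside 57.4% and 61.9% of all genes. These were Pcdhgb4, Pcdhgb5, Pcdhgb6, Pcdhgb7, Pcdhga12, Pcdhgc3 and Pcdhgc4. All lie in the gamma cluster, where the shorter lists gave 5 and 3 of 21 genes and the longer lists 7 and 7. The alpha cluster had 0 of 14 and the beta cluster 0 of 22 in each list of each library. These are counts of 2 libraries and carry no test.

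**Figure D1:**
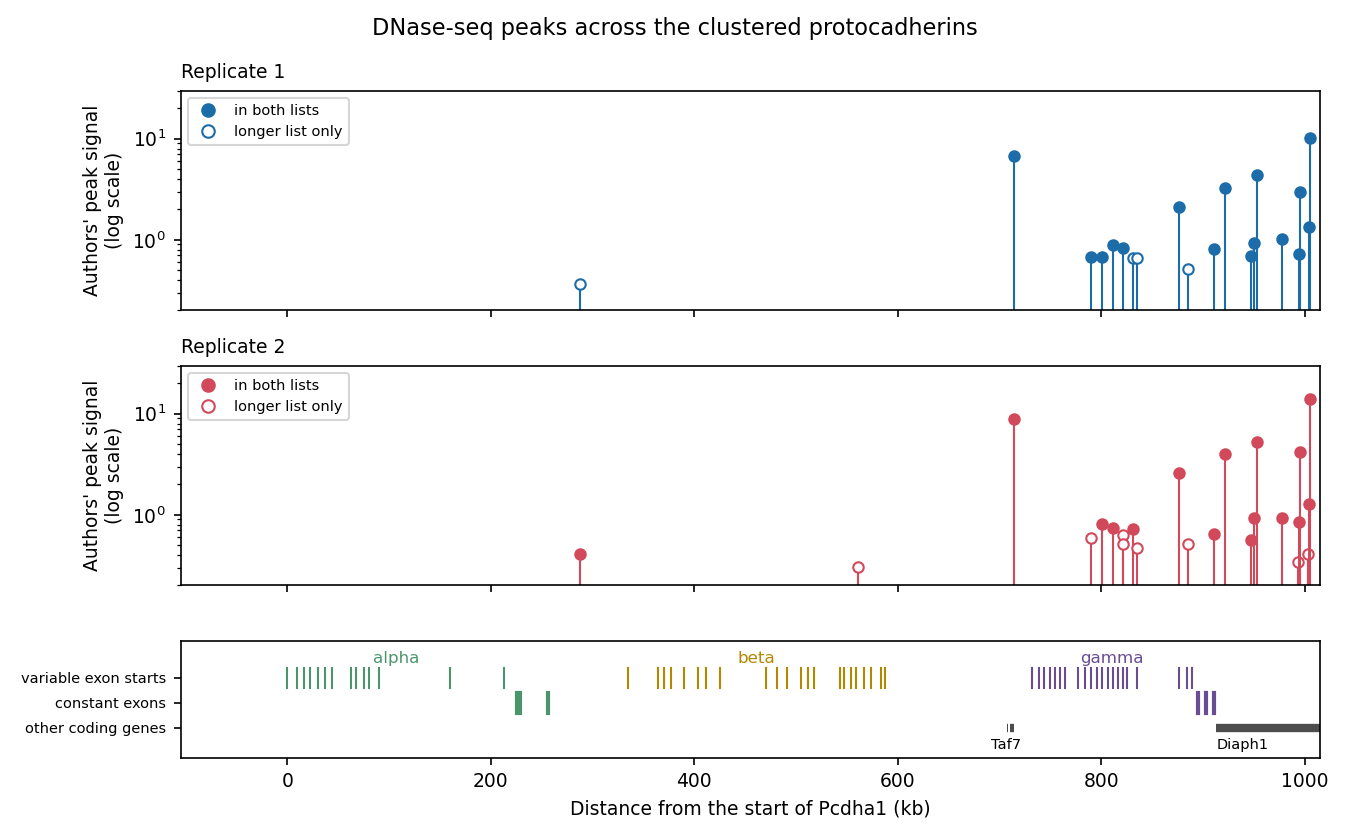
Peaks across the region. Each stem is a peak, placed by its distance in kb from the start of Pcdha1, with the authors' signal on a log axis. Filled points are in both lists of the library, open points in the longer list alone. The lower track marks variable exon starts, constant exons and the other coding genes. Peaks crowd at the right, over the second part of the gamma cluster and Diaph1, and the alpha cluster has none.

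The base composition of these promoters is unlike that of most genes, and the background differs with it. A start was called CpG-rich where the 500 bases to either side held at least 50% G+C and an observed over expected CpG ratio of at least 0.6. This was met by 3 of 57 clustered genes (5.26%) and by 44.4% of all protein-coding genes. Among the 12200 genes without a CpG-rich start, 28.6% in replicate 1 and 32.7% in replicate 2 had a promoter peak of the shorter list. Among the 9738 CpG-rich ones the shares were 84.4% and 87.3%. In the shorter lists the gamma cluster, at 23.8% and 14.3%, lay below the lower of these backgrounds in each library. Its B subfamily, with 4 and 2 of 6 genes, was above it in replicate 1 (66.7%) and near it in replicate 2 (33.3%). In the longer lists the gamma cluster, at 33.3% and 33.3%, stood beside 33.0% and 38.2% of genes without a CpG-rich start. Bases with a listed FDR were present at 33.3% and 33.3% of gamma promoters, beside 34.2% and 39.5% of those genes. For footprints the shares were 28.6% and 33.3%, beside 30.1% and 36.5%.

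**Figure D2:**
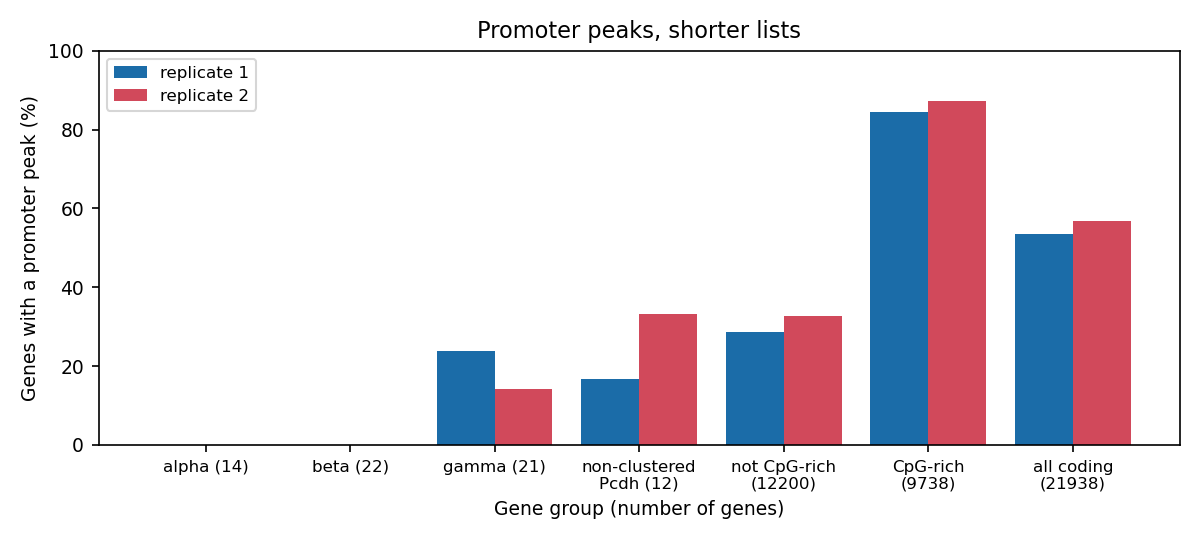
Percentage of genes with a promoter peak of the shorter list, in each library, by gene group. Bars start at 0, and the number of genes stands in parentheses. The alpha and beta clusters are at 0%, the gamma cluster at 23.8% and 14.3%, and all protein-coding genes at 53.4% and 56.9%.

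Repetition between the duplicated genes could hide reads that have no single place in the genome, so the share of 31-base words that occur once on the chromosomes was computed, a measure added after the data had been seen. Within 1 kb of the start the median share was 93.4% over the 57 genes and 98.3% over all protein-coding genes. It was 88.7% in the alpha cluster, 99.5% in the beta cluster and 97.5% in the gamma cluster, with the lowest value, 73.2%, at Pcdha7. The closed beta cluster thus had the highest median share of unique words, and open Pcdhgb4, at 80.8%, the lowest of the 21 gamma genes. Across the 57 genes Spearman's rho between this share and the listed bases was -0.004 in replicate 1 and -0.063 in replicate 2. Within the gamma cluster (21 genes), which held all the open promoters, rho was -0.30 and -0.31. This is a description over neighbouring, related genes read in the same libraries. From 200 bases before to 100 after the start, every word was unique at all open promoters except Pcdhgb6 and Pcdhgb7, where 81.9% were. The listed bases of open Pcdhga12 and Pcdhgc4 lay beyond this stretch, so its share does not describe them. Closed promoters also had a share of 96.3% or more there, lowest at Pcdha5. Nothing in the sources used here gives the read length, how reads with several matches were handled, or whether reads of the CAST allele aligned as well as the others. Their part in these results was not tested.

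The cut rate track gave nearly the same genes as the peaks. Both were made from the same alignments of each library, so this is not a separate check. A listed run was present at the promoters of 8 genes in replicate 1 and 7 in replicate 2, beside 58.4% and 63.0% of all protein-coding genes. Runs at or below an FDR of 0.001 were present at 6 and 3 promoters, beside 54.1% and 57.6% of all protein-coding genes. At 49 of the 57 promoters no base was listed in either library. The eighth gene of replicate 1 was Pcdhac2, a C-type alpha gene, with 3 listed bases at a lowest FDR of 0.0497 and 0 bases in replicate 2. At the 7 open promoters the listed bases ranged from 99 to 422 in replicate 1 and from 72 to 376 in replicate 2. The 2 libraries ranked the 57 genes alike, with a Spearman's rho of 0.94 over genes that are not independent of each other and mostly stand at 0.

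**Figure D3:**
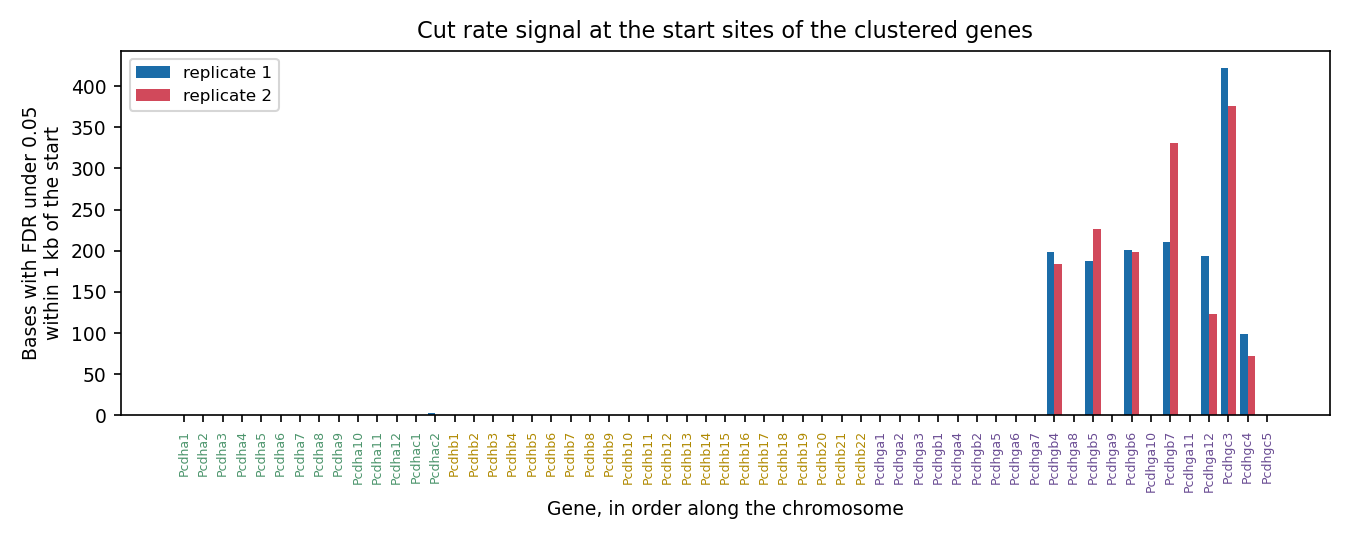
Bases with a listed FDR (under 0.05) within 1 kb of the start, for each of the 57 genes in chromosomal order, with 1 bar per library. The alpha and beta genes stand at 0 except for 3 bases at Pcdhac2, and the bars rise at 7 gamma genes, highest at Pcdhgc3 with 422 and 376 bases.

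Pcdhgc3, a C-type gene of the gamma cluster, had the strongest promoter peak of the family. The peak lay at chr18:37806241-37806480 in replicate 1 and ended at 37806460 in replicate 2, across the start of the gene model at 37806364. Its signal was 2.13 in replicate 1 and 2.62 in replicate 2, above 65.6% and 75.2% of the peaks of the shorter list. The lowest FDR was 3.23e-19 and 3.17e-17. Pcdhgc3 was the 1 clustered gene with a peak among the strongest 21227 of each library, a share of the lists that reached 46.7% and 46.2% of all protein-coding genes. The peak held 64.6% G+C in replicate 1, and the promoter was among the 3 CpG-rich ones. Pcdhac2 and Pcdhgc4 also had a CpG-rich start, and neither had a peak of the shorter list.

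Its C-type neighbours were weaker or closed. At Pcdhgc4 the longer lists placed a peak across the second annotated start, at chr18:37815313-37815442 in replicate 1, with a signal of 0.517 in replicate 1 and 0.513 in replicate 2 and lowest FDRs of 0.0203 and 0.0243. The shorter lists held no peak there. Pcdhgc5, Pcdhac1 and Pcdhac2 had no peak in either list. The C-type genes as a group thus counted 1 and 1 of 5 in the shorter lists. In the longer ones they counted 2 and 2 of 5. Over all protein-coding genes the shares were 53.4% and 56.9% in the shorter lists and 57.4% and 61.9% in the longer. Of the 5 C-type starts 3 were CpG-rich. Over all CpG-rich starts the shares were 84.4% and 87.3% in the shorter lists and 87.9% and 91.6% in the longer.

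The open gamma promoters were grouped in the second part of the cluster. The first 9 genes of the gamma cluster, including Pcdhgb1 and Pcdhgb2, had no peak and no listed base in either library. The first open gene was Pcdhgb4, the tenth in order, and all 4 gamma B members after Pcdhgb2 were open. The 7 open starts spanned 94.7 kb. The gamma A genes that lie between the open gamma B genes, Pcdhga8, Pcdhga9, Pcdhga10 and Pcdhga11, had 0 listed bases in both libraries, so open and closed promoters took turns over this stretch.

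Pcdhgb6 and Pcdhgb5 were called in the shorter list of both libraries. The Pcdhgb6 peak, at chr18:37741948-37742079 in replicate 1, had a signal of 0.886 there and 0.733 in replicate 2, with lowest FDRs of 5.44e-05 and 0.000145. The Pcdhgb5 peak, at chr18:37730894-37731042 in replicate 2, had a signal of 0.675 in replicate 1 and 0.820 in replicate 2, with lowest FDRs of 0.000526 and 1.31e-05. These peaks are weak for their lists, whose median signal was 1.39 in replicate 1 and 1.14 in replicate 2.

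Pcdhgb4 and Pcdhgb7 were in the shorter list of replicate 1 alone. At Pcdhgb4 the signal was 0.675 in replicate 1 and, in the longer list, 0.589 in replicate 2, where the lowest FDR was 0.00107. An FDR under 0.001 did not by itself place a peak in the shorter list. Pcdhga12 reached 0.000519 in replicate 1, with 11 bases at or below 0.001, and was in the longer list only. At Pcdhgb7 the signals were 0.833 and 0.625, with lowest FDRs of 0.000121 and 0.00195. Replicate 2 had a further peak in the longer list at Pcdhgb7, at chr18:37751729-37751860 in the variable exon, with a signal of 0.518. The listed bases at these 4 gamma B genes lay between 187 and 211 in replicate 1 and between 184 and 331 in replicate 2. Bases at or below an FDR of 0.001 differed more, with 129 and 0 at Pcdhgb4, 126 and 0 at Pcdhgb7, 58 and 149 at Pcdhgb5 and 132 and 104 at Pcdhgb6. The cores of Pcdhgb6 and Pcdhgb7 shared 49 of their 271 words with each other, and the part of this sharing in their signals was not tested.

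Pcdhga12, the last gamma A gene and the 1 open member of that subfamily, differed in where its signal sat. The peak of the longer list lay at chr18:37765861-37766020 in replicate 1, which is 281 to 440 bases after the start and inside the variable exon, and 257 to 379 bases after it in replicate 2. Its signal was 0.665 and 0.466, and the lowest FDR 0.000519 and 0.00513. In the gamma B genes and Pcdhgc3 the peaks lay across or just before the start, apart from the further Pcdhgb7 peak. The pseudogene Pcdhgb8, between Pcdhga11 and Pcdhga12, was also open. Its signal was 0.665 in the longer list of replicate 1 and 0.718 in the shorter list of replicate 2, and the peak, at chr18:37761585-37761718 in replicate 2, ended ahead of the start at 37761801.

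Footprints were examined at the open promoters together with the CGCT box, a conserved element shared by most alternate protocadherin promoters. It was searched on the sense strand from 300 bases before to 100 after the start as GNGNCGCT, a search chosen after seeing the data. These letters occurred in 43 of 57 genes (75.4%), and on either strand in 44 (77.2%) against 21.6% of all protein-coding genes. They were present in 7 of 14 alpha, 18 of 22 beta, 11 of 12 gamma A and 6 of 6 gamma B genes. The box letters were therefore present at most closed promoters too. The longer form GCGCCGCTG, which contains the shorter one, occurred in 10 genes on the sense strand and in 11 (19.3%) on either, against 1.22% of all protein-coding genes. Those with it on the sense strand were 4 gamma B genes and 6 gamma A genes. The 4 gamma B genes were the open ones, and Pcdhgb8 also had it, while the 6 gamma A genes were closed.

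A footprint overlapped the box, in whole or in part, at each of the 4 open gamma B genes. It did so in both libraries at 3 of them and in replicate 2 at Pcdhgb5. Over all protein-coding genes whose GNGNCGCT letters lay in a peak of the longer list, 51.4% of 1456 in replicate 1 and 57.3% of 1514 in replicate 2 had a footprint on them. Of the 5 such clustered genes, which include Pcdhgc3, 3 and 4 had one, a share near that background. A footprint was called within 1 kb of the start of 6 clustered genes in replicate 1 and 7 in replicate 2, beside 54.7% and 60.5% of all protein-coding genes. At Pcdhgb7 a footprint of 23 bases covered positions -76 to -54 from the start in both libraries, around the box that begins at -65. At Pcdhgb6 the footprint ran from -91 to -70 in replicate 1 and from -92 to -67 in replicate 2, around a box that begins at -80. At Pcdhgb4, whose box begins at -52, it ran from -47 to -37 in replicate 1 and from -63 to -37 in replicate 2. In replicate 1 it thus overlapped only the end of the box. At Pcdhgb5, whose box begins at -92, replicate 2 had footprints from -97 to -90 and from -88 to -77, each overlapping an end of the box, and replicate 1 had its nearest from -102 to -94, just short of it. At Pcdhgb8, whose box begins at -142, the footprint ran from -153 to -141 in replicate 1 and from -153 to -128 in replicate 2. In replicate 1 it thus overlapped only the beginning of the box. Pcdhgc3 had box letters at -41 from the gene model start, inside the peak but with no footprint on them.

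**Figure D4:**
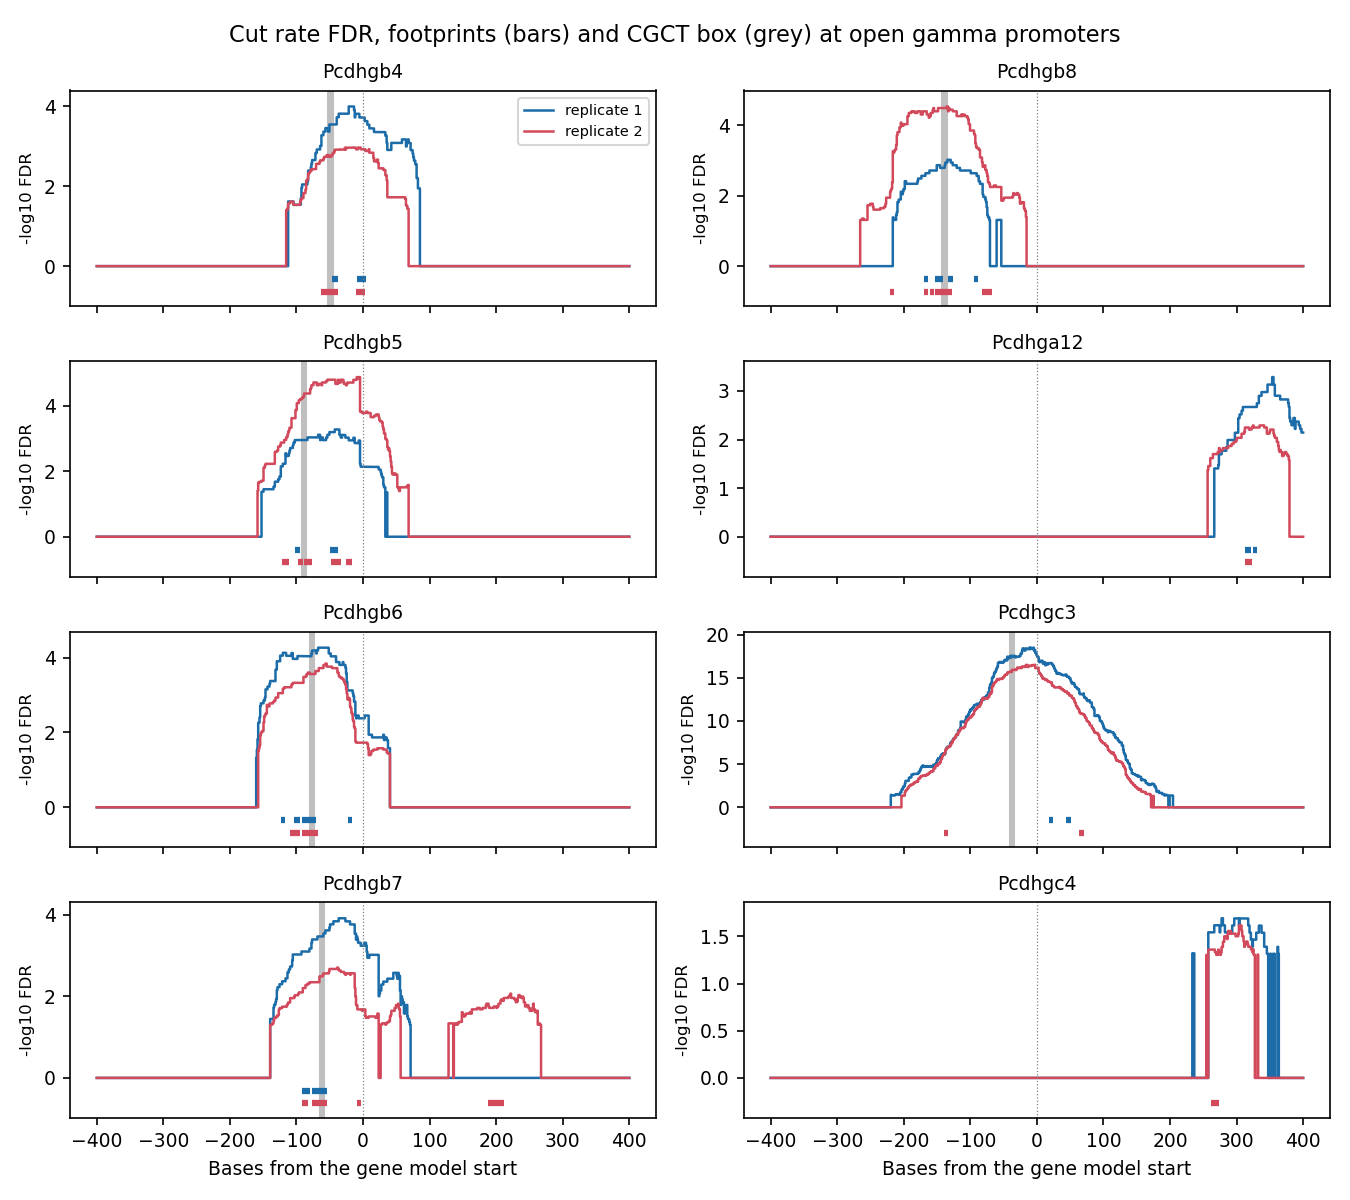
Minus log10 of the cut rate FDR around the gene model start of the 7 open genes and the pseudogene Pcdhgb8, for both libraries. Bases that the track does not list are drawn at 0, horizontal bars under each curve are footprints, and the grey band is the 8-base CGCT box. Curves of the gamma B genes sit on or ahead of the start, apart from a further stretch at Pcdhgb7 in replicate 2. In these genes a footprint overlaps the box, in whole or in part, in all but replicate 1 of Pcdhgb5. Pcdhga12 and Pcdhgc4 peak beyond the gene model start, and Pcdhgc3 reaches the highest values.

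CTCF, the zinc-finger protein that anchors loops at protocadherin promoters, has a site in many alternate promoters and exons. The core of the CTCF consensus was searched on both strands within 1 kb of the gene model start, as was a looser form with 1 fewer fixed letter, which includes the former. The core was found in 8 of 14 alpha genes, 0 of 22 beta genes and 1 of 21 gamma genes, against 13.3% of all protein-coding genes. The looser letters were found in all 14 alpha genes, 2 beta genes and 10 gamma genes, against 36.9%. In 7 of the 12 alternate alpha genes the core lay on the sense strand 537 to 581 bases after the start, within the variable exon, and looser matches lay 104 to 250 bases after it in 10. None of these alpha positions had a listed run in either library. In the gamma A subfamily 7 of 12 genes had a looser match on the sense strand 288 to 444 bases after the start, and all 7 were closed. Pcdhga12, whose peak occupies nearly the same distance from the start, had no match. No gamma B gene had a match to either form. A search by fixed letters misses sites that differ from them, so the absence of a CTCF site was not shown.

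The constant exons of the alpha cluster had no peak, no footprint and no listed run within 500 bases. The third gamma constant exon, chr18:37839903-37841870, held a peak near its 3′ end in both libraries. It lay at chr18:37841401-37841537 in replicate 1 and chr18:37841405-37841522 in replicate 2, with a signal of 0.812 and 0.651, above 23.5% and 23.3% of the peaks of the shorter lists. The lowest FDR was 7e-06 and 9.03e-05. A CTCF core match on the minus strand was in this peak, and in each library a footprint overlapped it. The first and second gamma constant exons had no peak.

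Between the alpha and beta clusters 1 small peak stood alone. It lay at chr18:37218300-37218403 in replicate 2, 30639 bases beyond the end of the alpha cluster, with a signal of 0.410 that exceeded 4.19% of the shorter list. In replicate 1 the longer list held it at chr18:37218327-37218408 with a signal of 0.369 and a lowest FDR of 0.0125. Each library had 1 footprint there, at different positions, and neither CTCF form was found. An enhancer of the alpha cluster is known downstream of its constant exons, and whether this peak is that element cannot be told from these files. The beta cluster held 1 peak in the longer list of replicate 2, at chr18:37491427-37491519 in the exon of Pcdhb18, with a signal of 0.308, and 0 in replicate 1.

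The alpha and beta clusters together lay in a long interval without peaks. In the shorter list of replicate 1 no peak occurred between 36803090 and 37644160, an interval of 841 kb that held the starts of all 36 alpha and beta genes. Intervals between neighbouring peaks reached this length in 1.16% of cases. In replicate 2 the peak beyond the alpha cluster divided it into 415 kb and 426 kb, lengths reached by 1.58% and 1.53% of intervals. The right end of the interval was in both libraries the promoter of Taf7, a gene of the general transcription factor TFIID that lies between the beta and gamma clusters. Its peak, at chr18:37644161-37644340 in replicate 1, had a signal of 6.74 and 8.86. Slc25a2, a mitochondrial carrier gene beside it, had no peak. Gm42416, Gm37013 and Gm37388, coding gene models that run from the alpha into the gamma cluster, had no promoter peak and no listed base in either library.

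Peak density changed along the region. The shorter lists gave 0 peaks over the 257.5 kb of the alpha cluster and 0 over the 259.5 kb of the beta cluster. Over the 180.1 kb of the gamma cluster there were 6 peaks in replicate 1 and 5 in replicate 2, or 3.33 and 2.78 per 100 kb. In the 100 kb beyond the gamma cluster there were 9 and 10. The genome as a whole had 1.56 and 2.23 peaks per 100 kb. The full region held 16 and 17 peaks, of which 14 in each library overlapped one of the other, or 87.5% and 82.4%. Its footprints numbered 51 and 70, of which 0 lay in the alpha cluster and 20 and 24 in the gamma cluster.

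Downstream of the gamma cluster the region runs through Diaph1, which encodes an actin-nucleating formin and is transcribed towards the cluster. Enhancers of the beta and gamma clusters are known in this neighbourhood, and the files do not name the elements seen. The Diaph1 promoter peak, chr18:37935401-37935720 in replicate 1, was the strongest of the region with a signal of 10.2 and 14.0. Inside Diaph1 introns the peak at chr18:37883561-37883720 had 4.36 and 5.22, the peak at chr18:37925961-37926160 had 2.95 and 4.18, and the peak at chr18:37852241-37852400 in replicate 1 had 3.27 and 3.99. Each of these exceeded Pcdhgc3 in its library. A looser CTCF match lay in the peak at 37852241, and a core match lay just past the end of the peak at 37883561, both on the minus strand. Over the region CTCF core letters lay inside 1 of 16 peaks (6.25%) and 1 of 17 (5.88%), beside 13.8% and 10.6% of all peaks of the shorter lists. With a margin of 20 bases around each peak the counts were 2 and 2 (12.5% and 11.8%), beside 14.2% and 10.9%. A REST consensus (REST is a repressor of neuronal genes) occurred in none of the region's peaks and in 0.0589% and 0.0313% of all. At so low a share its absence from 16 and 17 peaks says nothing about REST in this region.

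The non-clustered protocadherins, are single genes elsewhere in the genome that encode related proteins. Of 12 genes 2 had a promoter peak of the shorter list in replicate 1 and 4 in replicate 2, and 6 and 7 had one in the longer list. Over all protein-coding genes the shares were 53.4% and 56.9% in the shorter list and 57.4% and 61.9% in the longer. All but Pcdh11x, Pcdh12, Pcdh19 and Pcdh20 had a CpG-rich start. Over all CpG-rich starts the shares were 84.4% and 87.3% in the shorter list and 87.9% and 91.6% in the longer. Pcdh1 and Pcdh17 were open in the shorter list of both libraries, with 312 and 262 listed bases at Pcdh1 and 370 and 363 at Pcdh17. Pcdh11x, Pcdh12, Pcdh15 and Pcdh20 had no listed base in either. Pcdh7 had 0 listed bases in replicate 1 and 1620 in replicate 2, and no clustered gene differed as much between the libraries.

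Promoters were also counted at genes of proteins that act on the clusters, where the share over all protein-coding genes was 53.4% and 56.9%, and over CpG-rich starts 84.4% and 87.3%. All 10 genes of the CTCF and cohesin list (Ctcf, Rad21, Smc1a, Smc3, Stag1, Stag2, Wapl, Nipbl, Pds5a and Pds5b) had a promoter peak of the shorter list in both libraries. So did the 10 genes of the silencing list reported here (Smchd1, Setdb1, Trim28, Dnmt1, Dnmt3a, Dnmt3b, Uhrf1, Rest, Rcor1 and Hdac3). Hdac3, which lies next to Diaph1, had signals of 6.72 and 8.44. A promoter peak says nothing of the amount of protein.

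Markers of nervous tissue were checked because the clustered genes are known from it. Of 12 neuronal genes 4 had a promoter peak of the shorter list in replicate 1 and 5 in replicate 2, beside 53.4% and 56.9% of all protein-coding genes. In these lists Map2, Grin1 and Syn1 had a peak in both libraries, Snap25 in replicate 1, and Gad1 and Tubb3 in replicate 2. The longer lists gave 6 and 7 of 12, beside 57.4% and 61.9% of all protein-coding genes. There Snap25, Gad1 and Tubb3 had a peak in both libraries. Rbfox3, Stmn2, Elavl3, Syt1 and Nefl had no listed base in either library. Of 4 astrocyte genes none had a peak. Among the genes of oligodendrocytes and Schwann cells, Mbp had one in both shorter lists, and Sox10, Olig1 and Olig2 had none there. Olig1 had a peak in the longer list of replicate 2, with 106 listed bases. In bulk tissue an open promoter in few cells and a partly open one in many cannot be told apart. Which spleen cells gave the gamma signal was not tested. Of the other spleen lists, 4 and 5 of 6 T cell genes, 2 and 4 of 4 erythroid genes and 3 and 3 of 4 macrophage genes had a promoter peak of the shorter list.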

How the data were processed

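DNase-seq of mouse spleen was analysed from the files deposited for each of 2 libraries. Peaks and cut rates were made from each library's own filtered alignments on mm10, without pooling, per the deposited readme files. Names of the aligner and callers were not given in the sources used here. Peak signal is the value deposited by the authors. The cut rate track deposited by the authors gives an FDR (q-value) per run of bases, and footprints carry a threshold of 0.01 on every line.

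Coordinates count from 1. Genes came from the basic GENCODE M21 annotation and sequence from GRCm38.p6, and no sequence of the region is reported here. A peak counted at a promoter if it overlapped it by 1 base. Footprints were shared between libraries if the overlap covered 50% of the shorter one. Counts were made per library with pandas 2.3.3 and numpy 2.4.6 and were tested on simulated data. With 1 group of 2 libraries no test was possible, and shares over all protein-coding genes served as background. The alternatives were the longer list, the strongest peaks, narrower or single start promoters, peak midpoints, footprints in peaks, a stricter FDR, no flank and each library alone. Genes with a peak in any list, the C-type genes, the other coding genes of the region and the fixed gene lists were named, and 3 genes of these lists are not reported here. Members, lists and rules were chosen with earlier results of these data known. Uniqueness and the CGCT box were added after seeing the data.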

Additional observations from a re-analysis of the deposited data

How the results depend on the processing

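Of 59 alternatives over 11 results, 47 stayed within 1.5 times of the reported mean, 12 moved and 0 reversed. The longer lists raised the genes with a promoter peak from 4.0 to 7.0, over the family and in the gamma cluster alike, and the peaks per 100 kb inside the clusters from 0.789 to 1.43. The strongest 21227 peaks lowered these to 1.0, 1.0 and 0.143, the region's peaks from 16.5 to 6.0, and those between clusters and at constant exons from 1.5 to 0.0. Without the flanks the region held 7.0 peaks and 28.0 footprints in place of 60.5. Footprints inside shorter-list peaks gave 4.0 genes in place of 6.5, and runs with an FDR of at most 0.001 gave 4.5 in place of 7.5. The cause was not tested beyond the fewer peaks, footprints or bases that each alternative admits. The alpha and beta clusters stayed at 0 promoter peaks under all alternatives run. Only the longer list admits further peaks, and the other alternatives could hardly move a count of 0. Their unchanged values are among the 47 that stayed. Each library alone gave 3 to 5 genes with a promoter peak (3 to 5 in the gamma cluster), 16 to 17 region peaks, 0.717 to 0.861 peaks per 100 kb, 1 to 2 peaks between clusters and at constant exons, 6 to 7 genes with a footprint, 51 to 70 footprints and 7 to 8 genes with a listed run. No paired analysis was possible because the libraries form 1 group. The depth of each library is unknown, so a weak open site under the listing threshold was not detectable.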
